A study of Homo sapiens with 8 samples.

Results

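Imprinted genes were examined in H9 (WA09) human embryonic stem cells (hESCs) after increasing time in culture. The 34 genes were chosen by name from known imprinted loci, with earlier results of these data known, and all 34 were found among the 60675 genes of the files, at 18 loci. The gene symbol MCTS2 is given as MCTS2P in GENCODE release 29. Of the 34 genes, 20 are known as paternally expressed, 10 as maternally expressed, and 4 (GRB10, INPP5F, BLCAP and GNAS) are imprinted only in some transcripts or tissues.

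Messenger RNA was sequenced from 4 lines of the same origin, each in 2 samples. P1 hESCs were in their passages numbered in the 40s, P2 hESCs in the 100s, P3 hESCs in the 200s and P4 hESCs in the 300s. The study describes a copy number variation at 20q11.21, the band of MCTS2, in P3 and P4 hESCs. No agent was named for any of the lines. All of them grew without feeder cells in mTeSR1 medium on Matrigel and were passaged with dispase. Each passage range is a single line, and nothing says that its 2 samples came from separate cultures, so p-values measure only the spread between these samples, which may be technical. Passage and line cannot be told apart, and neither can fewer expressing cells and less RNA per cell.

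An imprinted gene is transcribed mainly from the copy inherited from the mother or from the copy inherited from the father. The choice is set by DNA methylation laid down in the germ line at imprinting control regions, and proteins such as ZFP57, ZNF445, TRIM28 and DNMT1 keep these marks through cell division. Cultured pluripotent cells are known to lose or gain such marks at some loci, which can switch a silent copy on or an active copy off. The counts used here sum both parental copies, so they give the amount of RNA of a gene and not its allele of origin.

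The samples held between 26874899 and 38095600 expected counts, of which the 34 genes took 0.188% to 0.236%. The mean share was 0.215% ± 0.015 (SD, n = 4) in P3 and P4 and 0.218% ± 0.021 (SD, n = 4) in P1 and P2 (exact permutation test, two-sided, p = 0.9143). Mitochondrial genes took 17.24% to 18.53% of the counts in P1 replicate 2, P3 replicate 1 and P4 replicate 1, and 5.89% to 9.84% in the other 5 samples. The pluripotency gene POU5F1 was at 1095 to 2421 TPM, SOX2 at 119 to 191 TPM and NANOG at 33.6 to 80.5 TPM. Of the 9 naive state markers found, 4 were under 1 TPM in every sample, among them KLF17 at 0.01 TPM or less, whereas KLF4, SUSD2 and TFAP2C were at 2.2 TPM or more in every sample and DPPA5 was at 0.42 to 2.96 TPM.

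Sequences are shown for NAP1L5, MCTS2, H19 and NDN, which are among the genes on which the results turn. They are the 250 bases before the start in RefSeq, in GRCh38.p14. Methylation at CpG sites near the start is what commonly separates an expressed copy from a silent one. The windows lie at chr4:88697830-88698079 on the minus strand for NAP1L5, chr20:31547129-31547378 on the plus strand for MCTS2, chr11:2001267-2001516 on the minus strand for H19 and chr15:23687306-23687555 on the minus strand for NDN. Capitals mark CpG sites, and each sequence runs 5′ to 3′ on the strand of its gene.
NAP1L5: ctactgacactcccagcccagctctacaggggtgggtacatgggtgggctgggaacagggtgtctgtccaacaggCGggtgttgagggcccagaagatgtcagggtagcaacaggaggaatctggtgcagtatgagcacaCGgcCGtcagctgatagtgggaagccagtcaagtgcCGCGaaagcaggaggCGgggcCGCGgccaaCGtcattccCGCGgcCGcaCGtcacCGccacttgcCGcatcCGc
MCTS2: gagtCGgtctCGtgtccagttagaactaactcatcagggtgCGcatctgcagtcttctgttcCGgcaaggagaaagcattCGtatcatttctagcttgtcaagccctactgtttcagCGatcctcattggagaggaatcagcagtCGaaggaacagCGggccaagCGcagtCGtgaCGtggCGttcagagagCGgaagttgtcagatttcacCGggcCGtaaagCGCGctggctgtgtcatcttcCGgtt
H19: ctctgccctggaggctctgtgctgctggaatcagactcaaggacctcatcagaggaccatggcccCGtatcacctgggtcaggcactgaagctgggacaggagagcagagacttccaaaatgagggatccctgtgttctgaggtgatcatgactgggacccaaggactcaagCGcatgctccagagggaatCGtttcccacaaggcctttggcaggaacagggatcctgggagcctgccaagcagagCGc
NDN: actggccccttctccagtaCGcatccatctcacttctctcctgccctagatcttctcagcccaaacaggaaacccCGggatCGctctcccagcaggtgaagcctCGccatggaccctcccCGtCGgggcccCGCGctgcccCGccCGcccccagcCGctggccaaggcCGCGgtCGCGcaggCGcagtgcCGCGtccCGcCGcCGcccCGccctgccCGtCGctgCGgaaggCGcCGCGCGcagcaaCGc
The windows held 16 CpG sites for NAP1L5, 18 for MCTS2, 4 for H19 and 30 for NDN, against a median of 11 in the 35116 windows of the table. TGCCGC, the core of the motif bound by ZFP57, was found 2 times before NAP1L5 and 1 time before NDN, and was not found before MCTS2 and H19 when both strands were read. For INPP5F, not shown, the window near the gene's start held 32 CpG sites and the one before a start 93227 bases downstream held 9. Neither held TGCCGC. Over the 49 windows of the 21 genes that had one, some of which overlap, 30.6% held TGCCGC, against 12.7% of all windows. The H19 window shares 204 bases with an exon of a longer H19 transcript, and the NDN window shares 25 bases with the first exon in GENCODE. No methylation was measured in these samples. IGF2, CDKN1C, KCNQ1, KCNQ1OT1, PHLDA2, SLC22A18, DLK1, MEG8, PEG10, SGCE, PEG3, ZIM2 and NNAT had no window in the table.

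The levels of the 34 genes spanned a wide range. SNRPN, which encodes a splicing protein of the Prader-Willi region, was the highest at 569 to 754 TPM, followed by GNAS, the stimulatory G protein alpha subunit, at 323 to 600.2 TPM and MEST, a hydrolase-like gene, at 98.0 to 130 TPM. At the other end, RTL1, MEG8, MKRN3, ZIM2 and DIRAS3 did not pass the filter on low counts and were not tested. RTL1 and MKRN3 were listed at 2 counts or fewer in every sample, as was MEG8, and DIRAS3, a RAS-related growth inhibitor, at 4 counts or fewer. In TPM, the levels of SNRPN and GNAS overlapped between early and late lines, whereas several of the low genes had reads in some lines only.

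**Figure D1:**
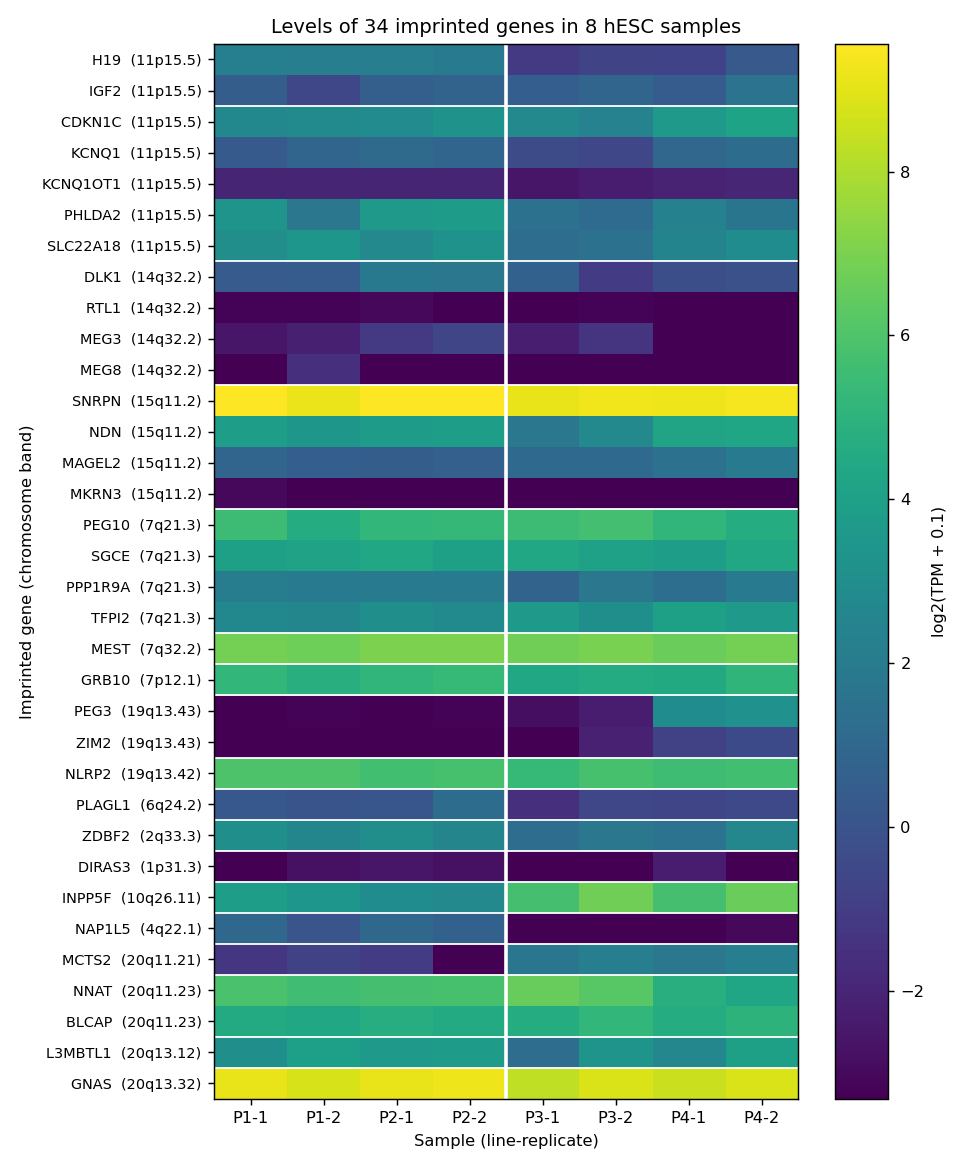
Level of each of the 34 imprinted genes (rows, by locus) in each of the 8 samples (columns) as log2(TPM + 0.1), with white lines between loci and between P2 and P3. NAP1L5 and H19 are darker and INPP5F and MCTS2 brighter in the 4 samples of P3 and P4, and PEG3 is bright only in the 2 samples of P4.

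The first comparison asked which of these genes differed between any of the 4 lines. Of the 29 tested genes, 7 (24.1%) had an adjusted p-value under 0.01, against 4.79% of the 19499 genes tested. These were PEG3, INPP5F, NAP1L5, H19, NDN, MCTS2 and NNAT. PEG3, NAP1L5 and MCTS2 passed the filter on low counts only through the lines where they were high. Their differences are thus partly built into being tested, here and in the comparisons below. The share of all genes went through the same filter. Adjusted p-values throughout come from quasi-likelihood tests in edgeR, corrected over the 19499 genes by the Benjamini-Hochberg method. At an unadjusted p under 0.05 there were 21 of the 29 genes, against 31.5% of all genes. Among the 7, PEG3, NAP1L5, NDN, MCTS2 and NNAT are known as paternally expressed, H19 as maternally expressed, and INPP5F has an imprinted short transcript.

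The second comparison set P3 and P4 against P1 and P2, 4 samples against 4. INPP5F and MCTS2 rose and NAP1L5 and H19 fell, which made 4 of 29 genes (13.8%) that passed both thresholds, an adjusted p under 0.01 and a change of more than 1 on the log2 scale, against 2.2% of all genes. By direction, 2 of 29 rose and 2 fell, against 1.06% and 1.14% of all genes. Without the 3 samples with the highest mitochondrial shares, a fit chosen after seeing the data, INPP5F and NAP1L5 passed, and H19 and MCTS2 had adjusted p-values of 0.039 and 0.051. Over the 29 genes the median log2 fold change was -0.08, and over all genes 0.01, while the median absolute log2 fold change was 0.75 for the 29 genes and 0.31 for all genes. In CPM, the counts scaled to a common library size with TMM factors, 12 of the 29 genes (41.4%) had all 4 samples of P3 and P4 on 1 side of the 4 others, against 17.6% of all genes, and 7 were above and 5 below, against 8.38% and 9.19% of all genes. The 7 above were IGF2, MAGEL2, TFPI2, PEG3, INPP5F, MCTS2 and BLCAP, and the 5 below were H19, GRB10, PLAGL1, NAP1L5 and GNAS. In TPM, the groups of IGF2, TFPI2, BLCAP, GRB10 and GNAS overlapped.

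**Figure D2:**
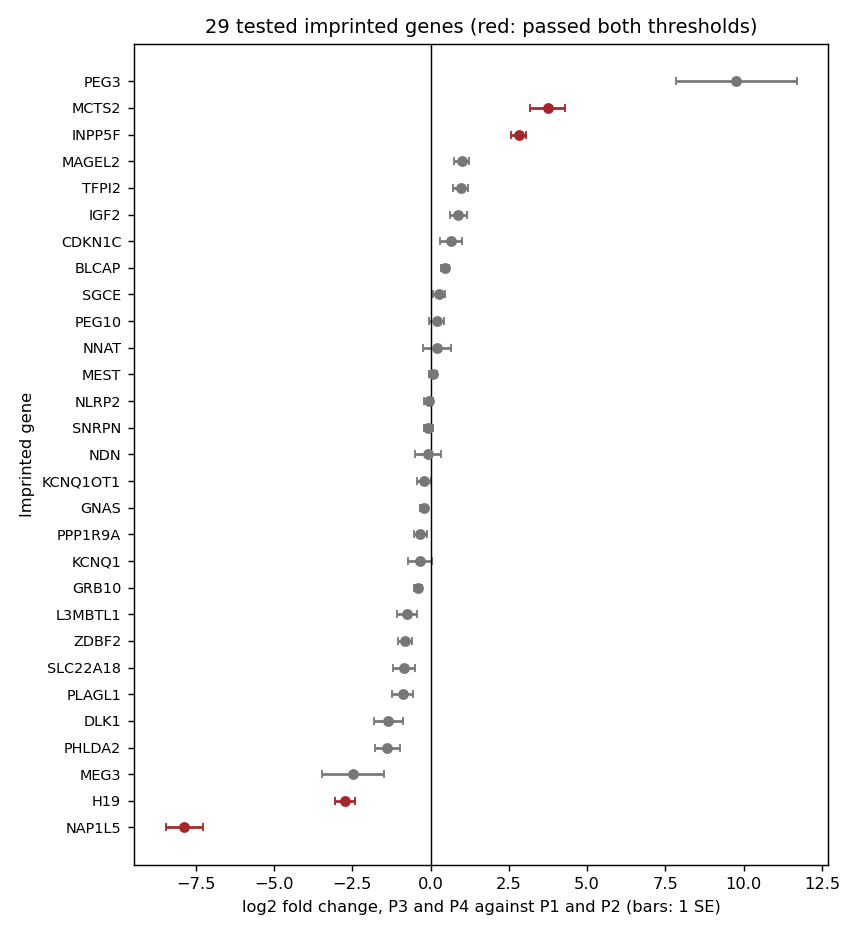
Log2 fold change of CPM in P3 and P4 against P1 and P2 for the 29 tested imprinted genes, with bars of 1 SE from edgeR (4 samples against 4). The 4 red genes passed both thresholds, from NAP1L5 at -7.87 to MCTS2 at 3.74, while PEG3 at 9.76 had a SE of 1.94 and did not pass.

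NAP1L5, an intronless retrogene related to nucleosome assembly proteins, lies at 4q22.1 (chr4:88695915-88697829, minus strand, GRCh38) inside the gene HERC3. Its expected counts were 115 and 62 in P1 and 125 and 92 in P2, and 0, 0, 0 and 1 in the 4 samples of P3 and P4. The groups did not overlap, and reads of NAP1L5 were near absent from both late lines. The 394 counts of the early samples against 1 count of the late ones make a ratio of 347 after scaling for depth (95% exact counting interval 61.9 to 13700), and the adjusted p was 3e-05. Against P1 alone, P3, with 0 counts in both samples, was at least 27.7-fold lower at the floor of 3 counts per library. The host gene HERC3 had a log2 fold change of 0.31 (adjusted p = 0.24). Of the 9 tested protein-coding genes that start within 500 kb, only HERC5, an interferon-inducible ubiquitin ligase, passed both thresholds, and it was higher (log2 fold change of 1.67, adjusted p = 0.0041).

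INPP5F, which encodes an inositol polyphosphate phosphatase, lies at 10q26.11 (chr10:119726042-119829278, plus strand). Its CPM was 43.6 and 38.5 in P1, 23.6 and 23.5 in P2, 209.9 and 281 in P3, and 169.6 and 248 in P4. The late samples were all far above the early ones, and the log2 fold change was 2.81 (SE 0.25, adjusted p = 9.7e-05). None of the 5 tested protein-coding genes that start within 500 kb passed, and their log2 fold changes lay between -0.07 (RGS10) and 0.37 (MCMBP).

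The files list 7 transcripts of INPP5F. The longest, of 5112 bases and 20 exons, starts at the beginning of the gene, and a transcript of 874 bases and 5 exons starts 0.1 kb downstream. A transcript of 3704 bases and 6 exons starts 92.7 kb downstream. The 4 others, of 552 to 686 bases, start 92.6 to 93.5 kb downstream. The imprinted, paternally expressed form of INPP5F is known to begin at an internal start. The files also give each gene a mean transcript length weighted by the estimated abundance of its transcripts. For INPP5F this length was 4028 and 3973 bases in P1 and 4253 and 4703 bases in P2, but 3632 and 3518 bases in P3 and 3438 and 3431 bases in P4. The means were 3505 ± 93.6 bases (SD, n = 4) in P3 and P4 and 4239 ± 332 bases (SD, n = 4) in P1 and P2, and the groups did not overlap (exact permutation test, two-sided, p = 0.0286, the smallest that 4 against 4 allow). That test treats samples of the same line as unrelated, and the lengths of other genes were not tested in this way. The abundance of single transcripts was not analysed here, so which start the shorter mean length comes from was not tested.

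**Figure D3:**
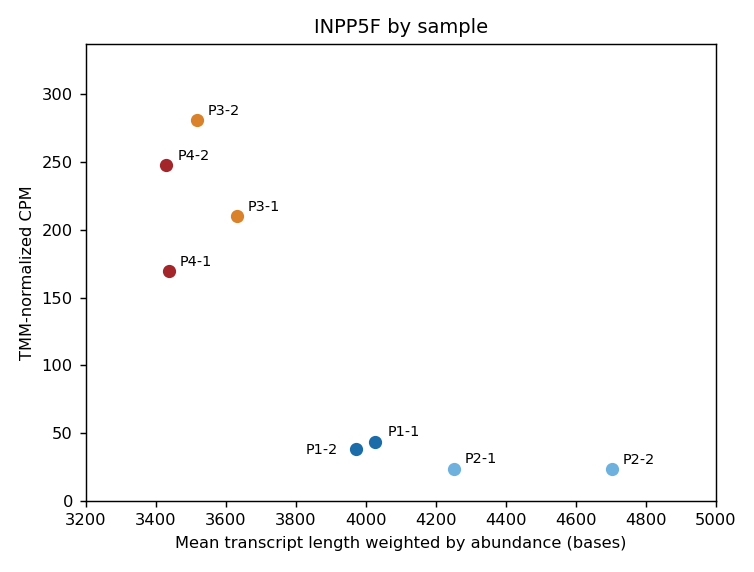
INPP5F in each of the 8 samples, with its abundance-weighted mean transcript length in bases (x axis, which does not start at 0) and its CPM (y axis). The 4 samples of P3 and P4 lie at 3431 to 3632 bases and 169.6 to 281 CPM, and the 4 samples of P1 and P2 at 3973 to 4703 bases and 23.5 to 43.6 CPM.

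MCTS2, a retrogene of the translation factor gene MCTS1, lies at 20q11.21 (chr20:31547412-31548081, plus strand) inside HM13, a gene for a signal peptide peptidase. Its expected counts were 3 and 5.12 in P1, 4 and 0 in P2, 38.6 and 42 in P3 and 33.1 and 34 in P4. Every late sample was thus above every early sample, although the early counts were near the floor of 3. The log2 fold change was 3.74 (SE 0.56, adjusted p = 0.0025), and it depends on the prior count because of those low counts. Without P1 replicate 1 or without P2 replicate 1 the adjusted p was 0.012.

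The exon of MCTS2 lies wholly within exons of HM13 on the same strand, so reads of MCTS2 and of some HM13 transcripts can be told apart only by the estimation of the authors' software. HM13 rose as well, from 87.0 ± 21 CPM (SD, n = 2) in P1 and 61.6 ± 5.2 CPM (SD, n = 2) in P2 to 299 ± 110 CPM (SD, n = 2) in P3 and 171 ± 33 CPM (SD, n = 2) in P4, with a log2 fold change of 1.66 (SE 0.28, adjusted p = 0.005). The band 20q11.21 is known to be gained often in cultured hESCs. Of the 10 tested protein-coding genes that start within 500 kb of MCTS2, 6 passed both thresholds as higher, against 1.06% of all genes. Among them were TPX2, a spindle assembly factor, with a log2 fold change of 2.04 (adjusted p = 0.00013), and BCL2L1, an inhibitor of apoptosis, with 1.26 (adjusted p = 0.0012). Those 10 genes had positive log2 fold changes between 0.39 (ID1) and 2.04. DNA copy number was not measured in these files. Since P3 and P4 hESCs are the lines described with a copy number variation of this band, its part in the levels of MCTS2 and its neighbours cannot be told apart from that of passage and line.

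H19, a maternally expressed noncoding RNA, and IGF2, a paternally expressed fetal growth factor, share the imprinting control region of the 11p15.5 domain, where methylation permits IGF2 and silences H19. H19 (chr11:1995176-2001470, minus strand) was at 4.10 and 4.85 CPM in P1, 4.50 and 4.46 CPM in P2, 0.506 and 0.390 CPM in P3, and 0.790 and 1.04 CPM in P4. The late samples were all below the early ones, and H19 fell by 2.72 on the log2 scale (SE 0.32, adjusted p = 0.00063). H19 fell in P3 by 3.31 (adjusted p = 0.00021) and in P4 by 2.28 (adjusted p = 0.0022) against the same P1 samples. In P4 the call did not hold without P1 replicate 2, P4 replicate 1 or P4 replicate 2, where the adjusted p reached 0.026.

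IGF2 was at 2.84 and 1.76 CPM in P1, 3.17 and 4.06 CPM in P2, 5.72 and 4.88 CPM in P3 and 4.88 and 6.49 CPM in P4. Its late samples lay above its early ones in CPM, with a log2 fold change of 0.89 (SE 0.27, adjusted p = 0.066) that did not pass. Against P1 the log2 fold changes in edgeR were 1.2 in P3 and 1.3 in P4 (adjusted p = 0.037 and 0.04), which did not pass. DESeq2 called IGF2 in both of these comparisons, where 7.18% and 4.49% of all genes passed. In TPM the groups of IGF2 overlapped. IGF2 shares 20.9% of its exon bases with the read-through gene INS-IGF2 on the same strand, so its reads can be split. None of the 10 tested protein-coding genes that start within 500 kb of H19 passed both thresholds.

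**Figure D4:**
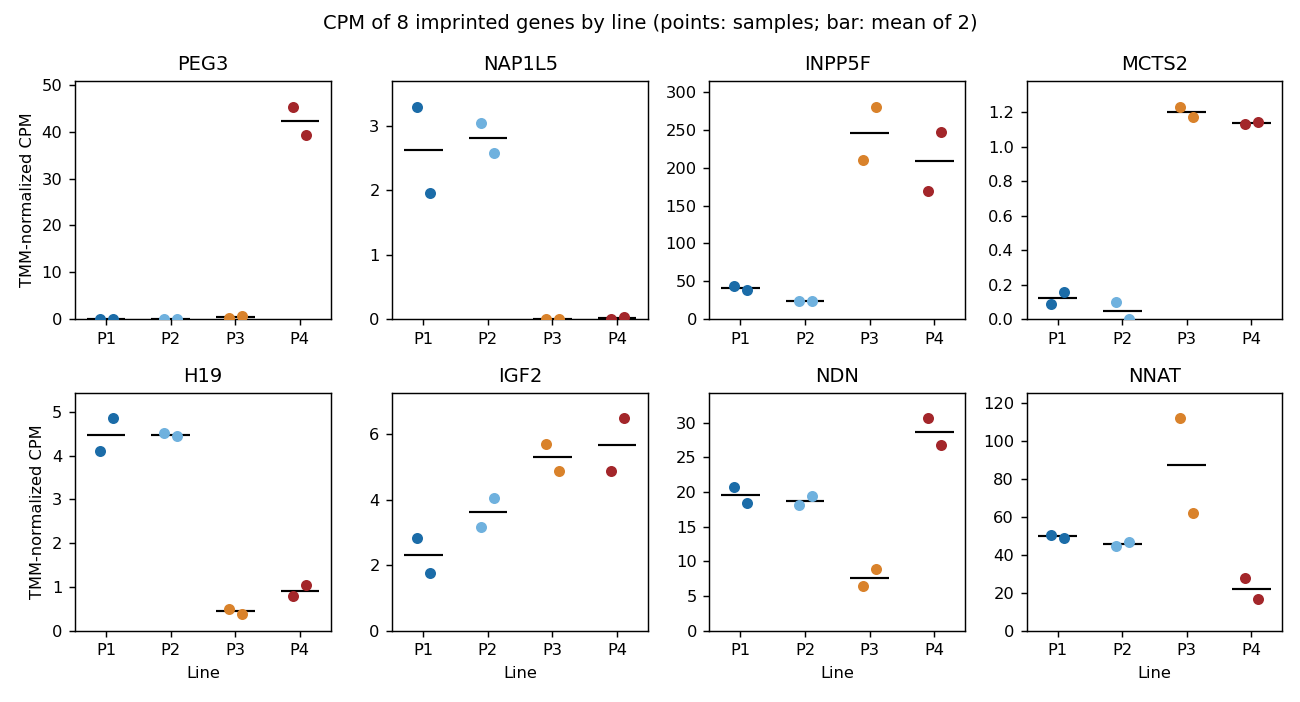
TMM-normalized CPM of 8 imprinted genes in each sample of P1, P2, P3 and P4, with a bar at the mean of the 2 samples of a line and each axis starting at 0. NAP1L5 and H19 are low and INPP5F and MCTS2 high in both late lines, PEG3 is high in P4 at 39.4 and 45.4 CPM, and NDN and NNAT lie on opposite sides in P3 and P4.

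Comparisons of single lines showed which of these differences P3 and P4 had each. In P2 against P1, edgeR called 0 of the 29 genes, as it did of all genes (0%), and DESeq2 and limma also called 0 of the 29. At an unadjusted p under 0.05 there were 4 of the 29 genes (DLK1, MEG3, PPP1R9A and INPP5F), against 9.14% of all genes. In P3 against P1, 4 of 29 genes passed (13.8%, against 3.93% of all genes). INPP5F rose, and H19, NDN and NAP1L5 fell, against 1.3% and 2.63% of all genes in these directions. In P4 against P1, 4 of 29 passed (13.8%, against 2.11% of all genes). PEG3 and INPP5F rose, and H19 and NAP1L5 fell, against 0.954% and 1.16% of all genes in these directions. These comparisons share the P1 samples.

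In P4 against P3, PEG3 and NDN were higher and NNAT lower, which made 3 of 29 genes (10.3%, against 0.815% of all genes, of which 0.554% were higher and 0.262% lower). Without P3 replicate 1, only PEG3 passed. INPP5F, MCTS2 and H19 did not pass in this comparison, with log2 fold changes of -0.23 (SE 0.22), -0.08 (SE 0.55) and 1.03 (SE 0.39).

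PEG3, a paternally expressed zinc finger protein of 19q13.43 (chr19:56810077-56840728, minus strand), was nearly silent in all lines but P4. Its expected counts were 0 and 1 in P1, 0 and 2 in P2, 6 and 25 in P3, and 1321 and 1170 in P4. The level in P4 was 42.4 ± 4.2 CPM (SD, n = 2), and its log2 fold change against P3 was 6.54 (SE 0.50, adjusted p = 2.2e-05). Against the single count of P1, the 2491 counts of P4 make a ratio of 2820 (95% exact counting interval 506 to 111000). P3 did not pass against P1 in edgeR (adjusted p = 0.015), but DESeq2 called PEG3 there (7.18% of all genes). PEG3 also did not pass in edgeR in the comparison of P3 and P4 with P1 and P2 (adjusted p = 0.013), but it passed there with DESeq2 (adjusted p = 6.7e-06).

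ZIM2, another zinc finger gene, shares the start of PEG3 and 41.2% of its exon bases with it on the same strand. It had 0 counts in P1 and P2, 0 and 1 in P3, and 9.13 and 15.1 in P4, so it was at least 4.3-fold higher in P4 than in P1 at the floor of 3 counts per library, and these reads can belong to PEG3. Of the 14 tested protein-coding genes that start within 500 kb of PEG3, ZNF667 and ZNF471, a pair of zinc finger genes, also differed between P4 and P3. ZNF667, which starts 362.7 kb away, had 24.4 and 27 CPM in P4 and at most 0.0837 CPM in the 6 other samples (adjusted p = 1.1e-05). ZNF471, which starts 332.9 kb away, had 4.91 and 3.33 CPM in P4 and was at 0 in the 6 other samples (adjusted p = 0.00074). Both genes passed the filter on low counts only through P4. ZNF835, ZNF71, ZNF470 and ZFP28, which start between them and PEG3, had log2 fold changes of 1.70, 0.54, 0.30 and 1.32 that did not pass. In P3 and P4 against P1 and P2, ZNF835 and the meiotic kinase gene AURKC rose, by 3.51 and 2.95 on the log2 scale (adjusted p = 0.0069 and 0.00022).

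**Figure D5:**
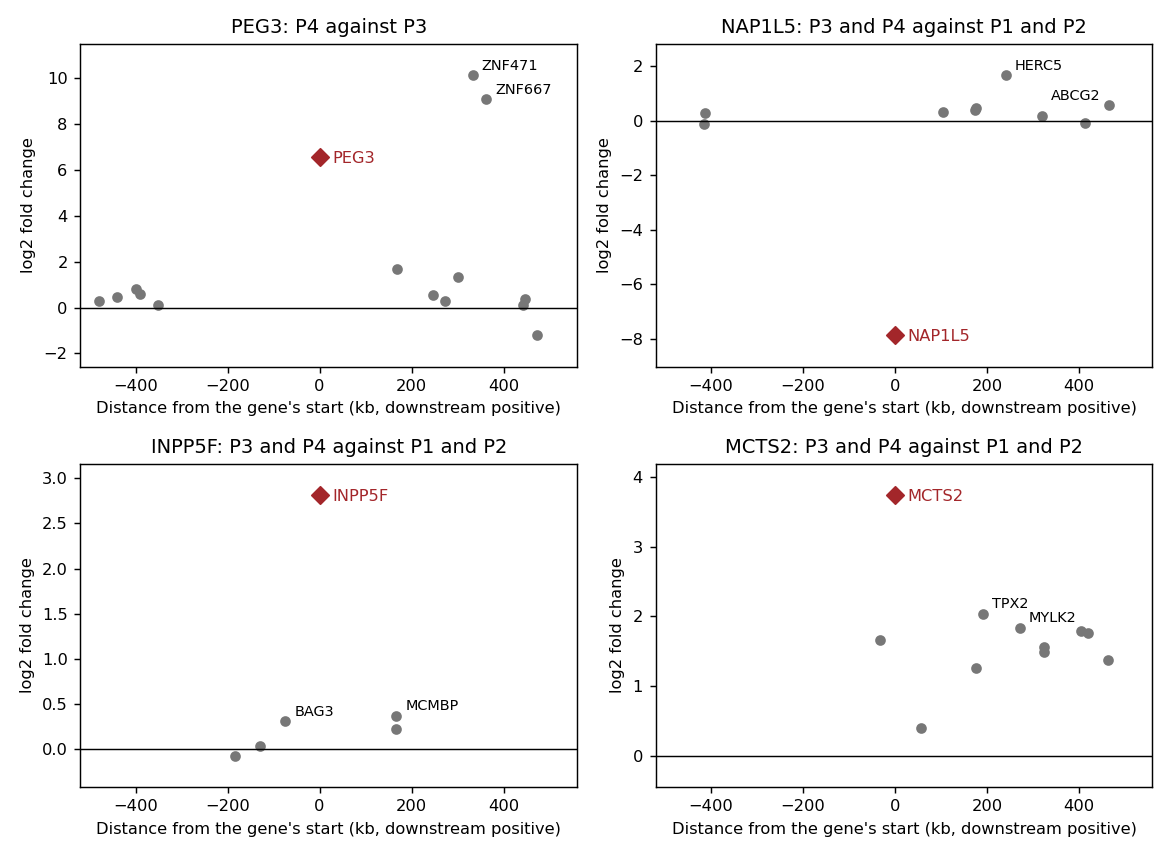
Log2 fold change (y axis) of the tested protein-coding genes that start within 500 kb of PEG3, NAP1L5, INPP5F and MCTS2, by distance from the start of that gene in kb (x axis), with P4 against P3 for PEG3 and P3 and P4 against P1 and P2 for the others. ZNF471 and ZNF667 lie with PEG3 at 6.54 or above, NAP1L5 and INPP5F lie apart from all their neighbours, and the neighbours of MCTS2 lie between 0.39 and 2.04.

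The paternally expressed genes of the Prader-Willi region at 15q11.2 did not move together. NDN, a growth suppressor of the MAGE family (chr15:23685400-23687330, minus strand), was at 20.7 and 18.5 CPM in P1, 18.1 and 19.4 CPM in P2, 6.42 and 8.87 CPM in P3, and 30.7 and 26.8 CPM in P4. It was lowest in P3 and highest in P4, with no overlap between these lines and the others. NDN fell by 1.36 on the log2 scale in P3 against P1 (SE 0.23, adjusted p = 0.0034), and was higher by 1.91 in P4 than in P3 (SE 0.23, adjusted p = 0.001). The first call did not hold without P1 replicate 1, P1 replicate 2 or P3 replicate 1, with an adjusted p up to 0.028, and neither call held in limma on TPM, with adjusted p-values up to 0.047 in P3 against P1 and up to 0.025 in P4 against P3.

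MAGEL2, a MAGE gene of endosomal protein sorting that starts 39.5 kb from NDN, was at 4.07 to 5.59 CPM in the 4 early samples and at 6.44 to 12.9 CPM in the 4 late samples. The groups did not overlap, and the log2 fold change of 0.99 (SE 0.24, adjusted p = 0.029) did not pass. DESeq2 called MAGEL2 across the 4 lines (13.2% of all genes) and in P4 against P1 (4.49%). SNRPN was at 701 to 761 CPM in the early and 589 to 801 CPM in the late samples, with a log2 fold change of -0.07 (SE 0.13, adjusted p = 0.78). SNRPN shares 23.8% of its exon bases with SNURF, which is read from the same transcript. MKRN3, a ubiquitin ligase gene, had a single count in 1 sample.

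NNAT, at 20q11.23 (chr20:37521206-37523693, plus strand), encodes a small membrane protein of developing brain. It lies within BLCAP, and 6.4% of its exon bases overlap BLCAP exons on the other strand. It was at 50.6 and 48.9 CPM in P1, 44.8 and 47.0 CPM in P2, 112 and 62.2 CPM in P3, and 27.7 and 16.5 CPM in P4. NNAT was above the early samples in P3 and below them in P4, with a log2 fold change of -1.98 (SE 0.30, adjusted p = 0.0041) in P4 against P3. That call did not hold without P1 replicate 1, P1 replicate 2, P3 replicate 1 or P4 replicate 2, where the adjusted p reached 0.048. BLCAP, a gene first described in bladder cancer, was at 34.3 to 37.7 CPM in the early and 42.9 to 56.2 CPM in the late samples. These did not overlap in CPM but did in TPM, and the log2 fold change was 0.46 (SE 0.13, adjusted p = 0.057).

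The other genes at 11p15.5 belong to the domain silenced by the antisense RNA KCNQ1OT1. None of them passed in any comparison of the main edgeR fit. DESeq2 called CDKN1C, PHLDA2 and SLC22A18 across the 4 lines, where 13.2% of all genes passed. It also called PHLDA2 in P3 and P4 against P1 and P2 (4.65% of all genes) and SLC22A18 in P3 against P1 (7.18%). CDKN1C was called by DESeq2 in P4 against P1 (4.49%) and against P3 (3.08%) as well. KCNQ1OT1 itself was at 10.4 to 12.5 CPM in the early samples, at 7.08 and 7.56 CPM in P3 and at 12.6 and 11.7 CPM in P4. CDKN1C, the cell cycle inhibitor p57, was at 17.1 and 18.7 CPM in P4 against 5.33 to 10.4 CPM in the other 6 samples (log2 fold change against P1 of 1.3, SE 0.30, adjusted p = 0.026). PHLDA2, a gene that restrains placental growth, had a log2 fold change of -1.38 in P3 and P4 (SE 0.41, adjusted p = 0.061). SLC22A18, a membrane transporter gene, had a log2 fold change of -1.66 in P3 against P1 (SE 0.35, adjusted p = 0.011). KCNQ1, a potassium channel gene, was at 2.09 and 1.39 CPM in P3 and at 2.55 to 5.32 CPM in the other 6 samples.

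At 14q32.2, the maternally expressed RNA MEG3 is a known marker of imprint loss in pluripotent cells. Its expected counts were 1 and 6 in P1, 31 and 22 in P2, 3 and 6 in P3, and 0 and 0 in P4. MEG3 was low in every line and was not detected in P4, and its difference between the 4 lines did not pass (adjusted p = 0.014). DLK1, a paternally expressed membrane protein related to Notch ligands, was at 4.24 and 4.34 CPM in P2 and at 0.586 to 2.12 CPM in the other 6 samples (adjusted p between the 4 lines of 0.032). DESeq2 called MEG3 and DLK1 across the 4 lines, where 13.2% of all genes passed. In P2 against P1 the log2 fold changes of MEG3 (2.65, SE 0.79) and DLK1 (1.40, SE 0.48) had adjusted p-values of 0.42 and 0.48.

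On chromosome 7, none of PEG10, SGCE, PPP1R9A, TFPI2, MEST and GRB10 passed in any comparison of the main edgeR fit. DESeq2 called TFPI2 across the 4 lines, where 13.2% of all genes passed. TFPI2, a protease inhibitor gene, was at 6.68 to 8.34 CPM in the early and 10.5 to 20.8 CPM in the late samples. These did not overlap in CPM but did in TPM (log2 fold change of 0.97, SE 0.24, adjusted p = 0.034). GRB10, an adaptor of the insulin receptor, was at 82.3 to 95.5 CPM in the early and 58.6 to 73.3 CPM in the late samples (log2 fold change of -0.41, SE 0.13, adjusted p = 0.074). PEG10, a retrotransposon-derived gene of placenta, and SGCE, a sarcoglycan gene that starts beside it in the opposite direction, had log2 fold changes of 0.19 (SE 0.23) and 0.27 (SE 0.19). MEST had a log2 fold change of 0.08 (SE 0.14), which was -0.10 on the log2(TPM + 1) scale in limma, and PPP1R9A, the actin-binding protein neurabin, had -0.33 (SE 0.20).

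Of the remaining members, ZDBF2, a zinc finger gene at 2q33.3, was at 44.8 to 64.5 CPM in the early samples, at 25.6, 25.3 and 27.6 CPM in 3 late samples and at 48.8 CPM in P4 replicate 2 (log2 fold change of -0.82, SE 0.22, adjusted p = 0.047). PLAGL1, a growth-regulating zinc finger factor at 6q24.2, was at 1.43 to 2.02 CPM in the early and 0.537 to 1.39 CPM in the late samples (log2 fold change of -0.89, SE 0.33, adjusted p = 0.12). L3MBTL1, a reader of histone methylation, was at 18.2 to 34.9 CPM in the early and 6.45 to 21.1 CPM in the late samples (log2 fold change of -0.75, SE 0.33, adjusted p = 0.18). GNAS had a log2 fold change of -0.22 (SE 0.12) and NLRP2, a gene of the NLR family active in oocytes, of -0.06 (SE 0.14). None of these 5 genes passed in any comparison of the main edgeR fit. DESeq2 called ZDBF2 across the 4 lines (13.2% of all genes) and in P3 against P1 (7.18%).

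The same tests were read for other imprinted genes and for the proteins that keep imprints. Of 54 other imprinted genes, 49 were found, 35 were tested, and 5 differed between the 4 lines (LPAR6, ANO1, PON3, CALCR and ATP10A), against 4.79% of all genes. In P3 and P4, 1 of the 35 rose and 2 fell, against 1.06% and 1.14% of all genes, and the median log2 fold change was 0.03. PON3, a lactonase gene at the PEG10 cluster, had 0 counts in all 4 early samples and was at 0.235 to 0.632 CPM in the late ones (adjusted p = 0.0035). PON3 thus passed the filter on low counts only through the late samples. ANO1, a chloride channel gene, was at 9.34 to 12.3 CPM in the early and 3.54 to 4.63 CPM in the late samples (log2 fold change of -1.40, SE 0.19, adjusted p = 0.0015). ATP10A, a phospholipid transporter gene of the 15q11-q13 region, was at 7.48 to 7.91 CPM in the early and 2.61 to 3.57 CPM in the late samples (log2 fold change of -1.22, SE 0.20, adjusted p = 0.0038).

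Of 29 genes for imprint maintenance and DNA methylation, 25 were tested and none passed in the comparison across the 4 lines by edgeR. ZFP57, which recognizes methylated TGCCGC, was at 1.89 to 3.70 CPM in the early and 0.980 to 2.12 CPM in the late samples (log2 fold change of -0.85, SE 0.33, adjusted p = 0.13). TRIM28, its corepressor, was at 716 to 889 TPM, and DNMT3B, a DNA methyltransferase, at 297 to 456 TPM. The late samples all lay above the early ones in CPM for DPPA3, which protects and erases methylation in the early embryo (log2 fold change of 1.42, SE 0.29, adjusted p = 0.013). The same held for EHMT2 (0.28) and for DNMT3L, a cofactor of DNA methylation (log2 fold change of 3.32, SE 0.74, adjusted p = 0.021). DNMT3L had 1, 2, 1 and 0 counts in the early samples and 12, 13, 12 and 3 in the late ones. Its separation thus rests on counts near the floor of 3. The late samples all lay below for DNMT3A (-0.45), TET2 (-0.33) and EHMT1 (-0.27). Of all genes, 17.6% had no overlap between these groups. None of these factors passed in this comparison by edgeR.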

How the data were processed

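Strand-specific mRNA libraries of 8 samples were used. The submitters' processing notes name FastQC, Trim Galore, STAR 2.7.3a, RSEM 1.3.3 and GRCh38; the annotation is not given in the sources used here. From reads aligned with STAR, the authors estimated with RSEM and deposited, per sample and gene, an expected count that is not normalized, a TPM value, an abundance-weighted transcript length and an FPKM value, which was not used. The expected counts were rounded, normalized by TMM and tested with edgeR 4.0.16 in R 4.3.3 after filterByExpr with the 4 lines as groups (19499 genes), with P3 and P4 against P1 and P2 as a 2-group model and single lines in a 4-group model. A call needed an adjusted p under 0.01 and, except across the 4 lines, an absolute log2 fold change above 1, the thresholds of the study. The SE was the log2 fold change divided by the square root of F. Folds against groups without counts are lower bounds at a floor of 3 counts per library (0.073 to 0.103 normalized CPM), and ratios against groups of 1 to 3 counts have Clopper-Pearson intervals; both cover counting error only. In every line, both samples differed beyond sampling noise. Alternatives used DESeq2 1.42.0 and limma 3.58.1. Positions and exon overlaps came from GENCODE 29 and were matched by gene identifier (57055 of 60675), symbols from a gene name table (56558) and sequences from RefSeq. All members were named, and up to 6 called genes per other list. The members and lists were chosen with earlier results of these data known. The methods were tested on simulated data.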

Additional observations from a re-analysis of the deposited data

Results flagged for a closer look

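The changes of 3 genes against P1 differed between P3 and P4 hESCs by edgeR's quasi-likelihood test of P4 against P3. The log2 difference was 6.54 for PEG3, 1.91 for NDN and -1.98 for NNAT. The cause was not tested.

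In groups of 4 samples (P1 with P2, or P3 with P4), a single sample stood apart from the 3 others for 5 of 58 groups by Dixon's test on log2(CPM + 0.1), where chance alone gives about 1 in 20. PEG10 in P1 replicate 2 was at 93.1 CPM against 150 to 153 CPM in the 3 others. The 4 other cases were all in P4 replicate 2. ZDBF2 was at 48.8 CPM against 25.3 to 27.6, GNAS at 403 CPM against 445 to 453, NLRP2 at 115 CPM against 138 to 142, and NAP1L5 at 0.0336 CPM, which is 1 count, against 0. With the 3 others of NAP1L5 tied at 0, any count in the remaining sample would have been flagged, so this case carries no information. P4 replicate 2 had the smallest depth and the smallest share of mitochondrial counts of the 8 samples.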

How the results depend on the processing

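INPP5F and NAP1L5 in P3 and P4 against P1 and P2 hESCs, and PEG3 in P4 against P3 hESCs, kept their direction and passed under all alternatives run. DESeq2 gave more calls, with 15 members across the 4 lines, 9 in P3 and 9 in P4 against P1, where 13.2%, 7.18% and 4.49% of all genes passed, against 4.79%, 3.93% and 2.11% with edgeR. Without the filter on low counts the members were 18, 10 and 10 and the shares of all genes 10.4%, 5.22% and 3.5%. With an FDR under 0.05 and no minimum fold change the members were 14, 10 and 9, where 2560, 2435 and 1159 of the 19499 genes passed, and 8 members passed in P3 and P4 against P1 and P2 (7.54% of all genes). Each of these 3 settings kept the same genes that were called and added others. Without the 3 libraries with the most mitochondrial counts, a fit added after seeing the data, 16 members passed across the 4 lines (19.1% of all genes), 8 in P3 and 9 in P4 against P1 (6.44% and 6.87%), 6 in P4 against P3 (8.16%, against 0.815% with all libraries), and 2 (INPP5F and NAP1L5) in P3 and P4 against P1 and P2 (0.302%). There H19 (-2.62, adjusted p = 0.039) and MCTS2 (4.14, adjusted p = 0.051) no longer passed. Leaving out each sample in turn, which leaves a line with 1 sample assumed to vary like the others, gave 5 to 8 members across the 4 lines, 3 to 5 in P3 and P4 against P1 and P2, 0 in P2, 3 to 6 in P3 and 3 to 4 in P4 against P1, and 1 to 3 in P4 against P3, the lowest without P3 replicate 1.

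Log2 fold changes that changed sign in P3 and P4 against P1 and P2 hESCs were all within their errors. NNAT was -0.29 and -0.31 on log2(TPM + 1) and log2(TPM + 0.1), -0.12 in the 4-group model and -0.27 without the 3 mitochondrial libraries, and MEST was -0.10 on both TPM scales and -0.03 without those libraries, where PEG10 was -0.02. With single samples left out, NNAT ranged from -0.43 to 0.50, NDN from -0.45 to 0.20, MEST from -0.03 to 0.15, SNRPN from -0.14 to 0.00 and NLRP2 from -0.13 to 0.01. The cause was not tested.

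PEG3 in P3 and P4 against P1 and P2 passed with DESeq2 (9.96, adjusted p = 6.7e-06), without the filter (9.78) and in the 4-group model (7.54). NDN passed on neither TPM scale in limma, with adjusted p-values on log2(TPM + 1) and log2(TPM + 0.1) of 0.026 and 0.021 across the lines, 0.047 and 0.038 in P3 against P1, and 0.025 and 0.017 in P4 against P3. The replicate numbers 1 and 2 are shared by the lines in the labels. The correlations of their deviations between lines ran from -0.119 to 0.178. These values gave no sign of pairing by replicate number, but they cannot exclude a shared batch. With the replicate block all 6 counts of members called were the same (7, 4, 0, 4, 4 and 3). Depth limits RTL1, MEG8, MKRN3, ZIM2, DIRAS3, MEG3 and the early level of MCTS2, whose counts lie near the floor.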

Other observations

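Marker genes of other cell types were read because imprinted genes differ between tissues, and the lists were not tested as groups. Of 12 pluripotent stem cell markers all were tested and 2 differed between the 4 lines, against 4.79% of all genes. These were DPPA2 (3.5 ± 1.1 CPM in P1 and 17.6 ± 7.1 CPM in P4, SD, n = 2) and UTF1 (1.15 ± 0.56 and 5.55 ± 1.8 CPM, SD, n = 2). Of 12 mesendoderm and endoderm markers, 10 were tested and 2 differed, against the same 4.79% of all genes. FOXA2 was at 6.76 and 6.33 CPM in P3 hESCs and at 0.135 to 0.977 CPM in the 6 other samples (edgeR adjusted p = 0.00017). EOMES was at 0.0948 and 0.0837 CPM in P3 hESCs and at 2.87 and 2.05 CPM in P2 hESCs (edgeR adjusted p = 0.00056), and the summed level of this list ran from 7.52 to 15.4 TPM.

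Of 16 trophoblast and amnion markers, 10 were tested and 1 differed between the 4 lines, against 4.79% of all genes. This was HAND1, at 1.85 and 2.27 CPM in P2 hESCs against at most 0.168 CPM in the 6 other samples (edgeR adjusted p = 0.0007). HAND1 passed the filter on low counts only through P2 hESCs. The summed level of this list was 22.4 to 37.0 TPM in P1 and P2 hESCs and 14.4 to 22.5 TPM in P3 and P4 hESCs, and 9 of its genes were under 1 TPM in every sample. None of the 6 tested naive state markers, the 5 tested neuroectoderm markers and the 6 tested mesenchyme markers passed in edgeR across the 4 lines. In the mesenchyme list COL1A1 was at 51.3 to 150 TPM, while COL3A1, DCN and LUM were at 0.18 TPM or less. The list summed to 148 to 230 TPM in P1 and P2 hESCs and to 92.1 to 132 TPM in P3 and P4 hESCs. These sums did not overlap, but they came mostly from COL1A1 and COL1A2, whose groups overlapped in CPM. The log2 fold changes of COL1A1 and COL1A2 in P3 and P4 against P1 and P2 were -0.64 and -0.23 (edgeR adjusted p = 0.17 and 0.58). The part of these levels in the results on imprinted genes was not tested.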
